A study of Rattus norvegicus with 6 samples.

Results

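Ceacam1 and Ceacam4 are carcinoembryonic antigen (CEA) family genes, and each was read by 1 probe among the 30367 probes of the array, of which 18005 were matched to 15168 genes. The members are the probes whose accession belongs to either gene, and the pair was selected on the strain difference of earlier results from these arrays, so the levels and differences of both genes below are a description without a test. The arrays, 1 Cy3 Agilent array per rat, measured colon RNA of 3 Dahl salt-sensitive S rats (S1 to S3) and 3 rats of the S.LEW congenic line (C1 to C3). The S rat is an inbred hypertensive strain (SS/Jr), and the congenic line, S.LEW(10)x12x2x3x5, is an S rat that carries a short stretch of Lewis (LEW) chromosome 10. All 6 were males on a low-salt diet (0.3% NaCl) that had received azoxymethane (AOM), a colon carcinogen, in 2 weekly injections of 15 mg/kg from 6 weeks of age, and the colon was taken at 30 weeks. Rats without AOM were not analysed here. The sources used here do not state which stretch of the colon, or how much tumor, went into each RNA.

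CEA family proteins are built from immunoglobulin domains and sit on, or are released from, epithelial and blood cells. CEACAM1 spans the membrane, binds other CEACAM1 molecules on neighbouring cells and, through its long cytoplasmic tail, recruits phosphatases that damp receptor and immune signals. In the gut it lies on the surface of the epithelium, and it has long been studied in colorectal tumors. Rat Ceacam4 carries the older name Ceacam10, under which the study lists it, and the mouse gene called Ceacam10 encodes a secreted member of the family. A shared symbol does not make the rat gene the counterpart of human CEACAM4, a receptor of granulocytes.

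Both genes lie on rat chromosome 1, outside the Lewis stretch on chromosome 10. Their promoters are shown because they are nearly the same sequence, while the strain differences of the genes were of unequal size. The 250 bases before each RefSeq start are given 5′ to 3′, and capitals mark bases that differ, or are missing, in the other gene's aligned promoter.
Ceacam4, chr1:89504305-89504554 of GRCr8, plus strand: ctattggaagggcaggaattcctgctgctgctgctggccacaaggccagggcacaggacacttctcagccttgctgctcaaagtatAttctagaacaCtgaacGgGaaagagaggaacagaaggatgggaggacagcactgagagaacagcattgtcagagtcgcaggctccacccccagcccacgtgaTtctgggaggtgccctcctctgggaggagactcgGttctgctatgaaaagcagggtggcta
Ceacam1, chr1:90187793-90188042 of GRCr8, minus strand: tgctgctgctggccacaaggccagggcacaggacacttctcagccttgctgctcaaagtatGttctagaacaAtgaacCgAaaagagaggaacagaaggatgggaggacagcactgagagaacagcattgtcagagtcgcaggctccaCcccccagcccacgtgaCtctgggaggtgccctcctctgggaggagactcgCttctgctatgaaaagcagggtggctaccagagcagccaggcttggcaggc
Over the 276 aligned columns of the full windows, which run 50 bases past each start, 269 were identical (97.5%), 6 were substitutions and 1 was a gap, and the RefSeq start of Ceacam4 lies further upstream in the shared sequence. Among the other promoters of the family the nearest to that of Ceacam4 was that of Ceacam11, with 163 identical bases in 254 aligned columns. Each member has the E-box CACGTG, the motif bound by factors such as USF1, which begins 68 bases before the start of Ceacam4 and 92 bases before that of Ceacam1. On either strand this motif is found in 5.59% of 33469 promoters. The letters CCACCC are present in both members and in 26.1% of promoters, and neither GGGCGG (30.5%) nor TATAAA (12.9%) nor the interferon response motif (3.41%) is present in either, each searched on both strands. Probe sequences are not in the files used here, so cross-hybridization between these related genes was not tested.

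Ceacam4, read by probe A_44_P411912 (annotated to NM_173339), had a much lower signal in the colons of the congenic rats than in those of the S rats. Its deposited normalized log2 signal reached 5.86, 7.14 and 3.78 in C1, C2 and C3, against 10.94, 9.79 and 10.63 in the 3 S rats in the same order. The strains did not overlap, and the lowest S rat stood 2.65 above the highest congenic rat on the log2 scale. The mean was 5.59 ± 1.69 (SD, n = 3) in the congenic strain and 10.45 ± 0.60 (SD, n = 3) in S, a difference of -4.86 (limma standard error 0.83), or 29.1-fold. The spread was therefore wider among the congenic rats, whose range was 3.36 against 1.15 in S. Part of it lies near the detection limit, since the spot was well above background on all 3 S arrays but on 2 of 3 congenic arrays, C1 and C2. The background-corrected intensity before normalization was 56.9, 89.2 and 9.28 for the congenic rats and 3747, 617 and 2261 for the S rats, in order of their numbers. With the value of C3 raised to 5.01, the lowest log2 signal of any probe well above background on that array, the strains differed 21.9-fold.

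**Figure D1:**
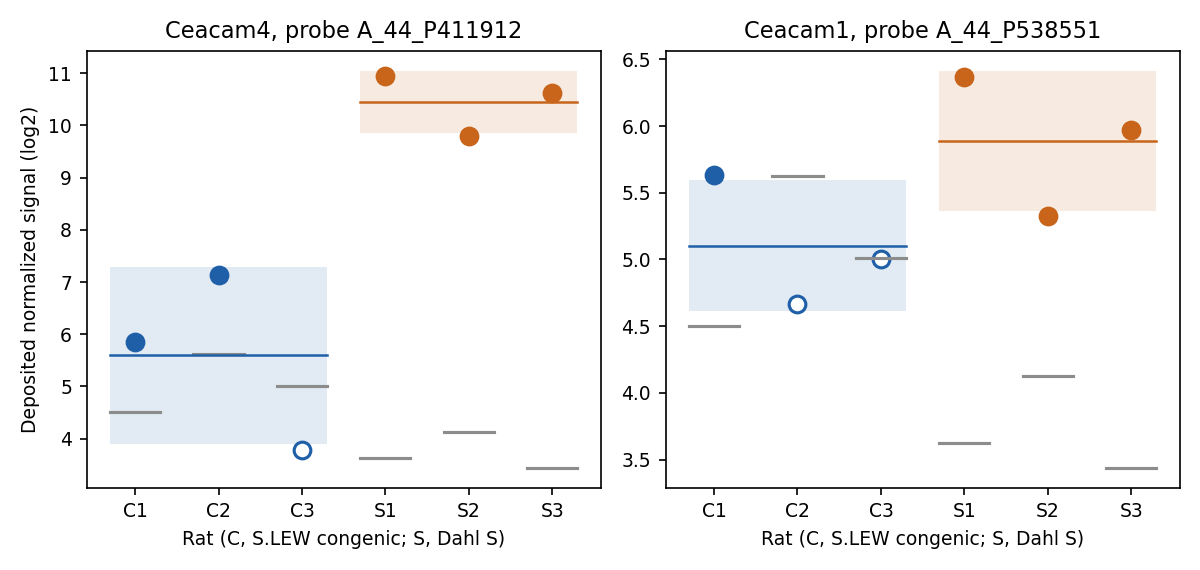
Normalized log2 signal of the probes of Ceacam4 (left) and Ceacam1 (right) in each rat, on separate vertical scales. Filled points were well above background and open points were not, gray bars give the lowest signal well above background on that array, and lines with bands give the strain mean ± SD (n = 3); Ceacam4 is at or below 7.14 in all congenic rats and at or above 9.79 in all S rats, whereas for Ceacam1 the rat C1 lies above S2.

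Ceacam1, read by probe A_44_P538551, showed a small difference in the same direction, and its strains overlapped. C1, C2 and C3 gave log2 signals of 5.64, 4.67 and 5.00, while S1, S2 and S3 gave 6.37, 5.32 and 5.97. Thus C1 was above S2, while the other congenic rats were below every S rat. The mean was 5.10 ± 0.49 (SD, n = 3) in the congenic strain and 5.89 ± 0.53 (SD, n = 3) in S, a difference of -0.79 (limma standard error 0.36), or 1.72-fold. The probe was dim in this tissue, with intensities of 12.6 to 49.5 in the congenic rats and 34.0 to 148.8 in the S rats. It passed the background flag in all 3 S rats and in 1 congenic rat, C1. With C2 and C3 raised to the lowest signal well above background of their arrays, the difference was 1.38-fold. RefSeq gives several Ceacam1 transcripts, and the probe is annotated to NM_031755, so the signal need not stand for all of them.

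At the cut-offs of the study, an unadjusted p under 0.05 with at least a 2-fold change, limma called 1 of the 2 members, Ceacam4, lower in the congenic strain. Those cut-offs called 2.34% of the 23997 probes of the deposited table lower and 3.23% higher. At 1 of the 2 members, again Ceacam4, all congenic rats were below all S rats, as at 5.33% of all probes, and the reverse order was found at 12.4%. Since the pair was chosen on this contrast, nothing follows from these counts. No probe of the table had a Benjamini-Hochberg adjusted p under 0.05 with limma or with the methods' t-test, although 3115 had an unadjusted limma p under 0.05.

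The rats of a strain were not equally alike. Across all probes S2 resembled the congenic rats (correlations of 0.967 to 0.976) more than it did S1 and S3 (0.937 at most), which correlated with each other at 0.980. For Ceacam4, S2 nevertheless stayed with S, at 9.79, and without S2 the difference was -5.19. For Ceacam1, S2 was the lowest S rat, and without it the difference was -1.07. The rat that weighed most on Ceacam4 was C3, without which the difference was -3.96, while without C2 it was -5.63. The arrays were scanned at 2 times, C1 with the 3 S arrays and C2 with C3. Within the first scan, where C1 alone stands for the congenic strain, the difference was -4.60 for Ceacam4 and -0.25 for Ceacam1. The second scan held only congenic arrays. A fit with the scan as a block therefore had to give the same values and is not a further check.

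**Figure D2:**
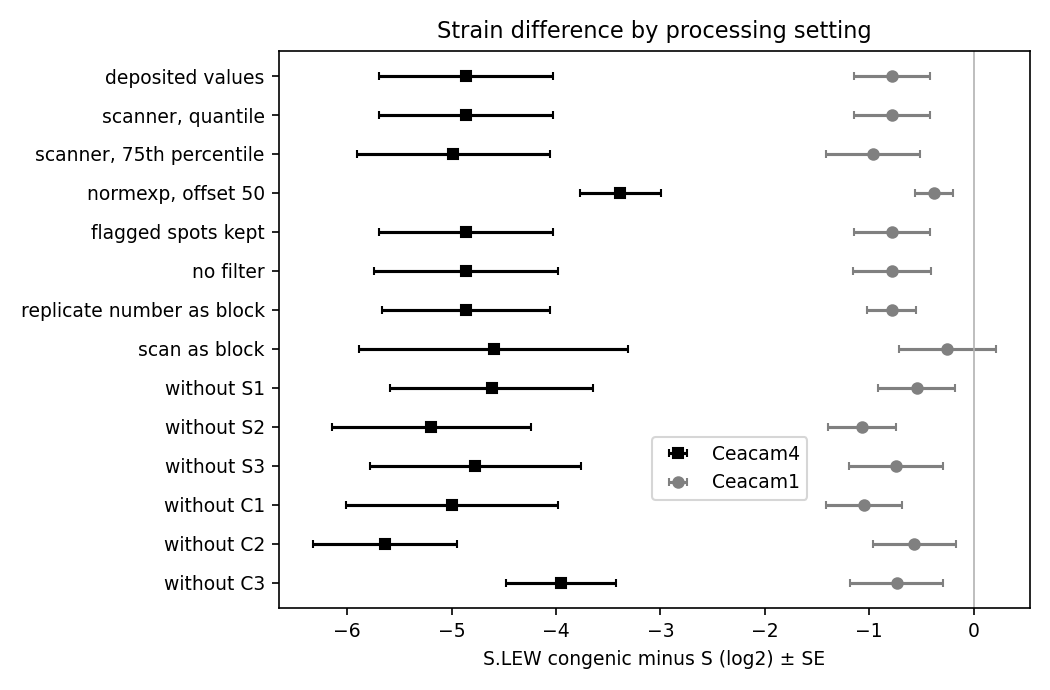
Difference between strains (S.LEW congenic minus S, log2, ± limma standard error) of Ceacam4 (squares) and Ceacam1 (circles) under each way of processing the arrays and with each rat left out. Ceacam4 ranges from -5.63 to -3.38, the latter with normexp background correction, and Ceacam1 from -1.07 to -0.25.

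No other CEA family gene tested had a difference as large as that of Ceacam4, while that of Ceacam19 was near that of Ceacam1. RefSeq lists 16 genes of the family by symbol (Ceacam, and the pregnancy-specific Psg genes), all on chromosome 1, and 13 of them had a probe. Apart from the members, 6 of 11 genes with a probe were in the deposited table, and of these 0 were called lower and 0 higher by limma, with adjusted p values of 0.51 to 0.90 and a median difference of -0.12. Over all 12418 named genes tested, with the brightest probe of each, 2.62% were called lower and 3.79% higher, with a median difference of 0.03. Ceacam19 had the lowest of the 6 differences, -0.83 (standard error 0.56), with log2 signals of 13.65, 12.13 and 11.55 in the congenic rats, 13.02 in S1 and 13.79 in S2, with S3 close to S1. C1 thus stood with the S rats, and without C1 the gene was called lower at the unadjusted cut-offs, with a difference of -1.43 (adjusted p = 0.474 from limma). C1 was also the only congenic array scanned with the S arrays, so without it strain and scan time cannot be told apart. Ceacam20, a protein of intestinal microvilli, had 7.37, 7.04 and 7.27 against 6.71, 7.38 and 6.90. The probe of Ceacam9, a gene known from the placenta, was well above background in every rat, between 16.25 and 16.78. Whether so bright a signal comes from Ceacam9 alone was not tested. Ceacam16, known from the inner ear, lay between 4.70 and 5.31, Psg19 between 5.17 and 5.80 and Psgb1 between 8.41 and 9.27. In each of these 6 genes the strains overlapped. The probes of Ceacam3, Ceacam11, Ceacam12, Psg16 and Psg29, and the other probe of Psg19, were not well above background on any array.

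**Figure D3:**
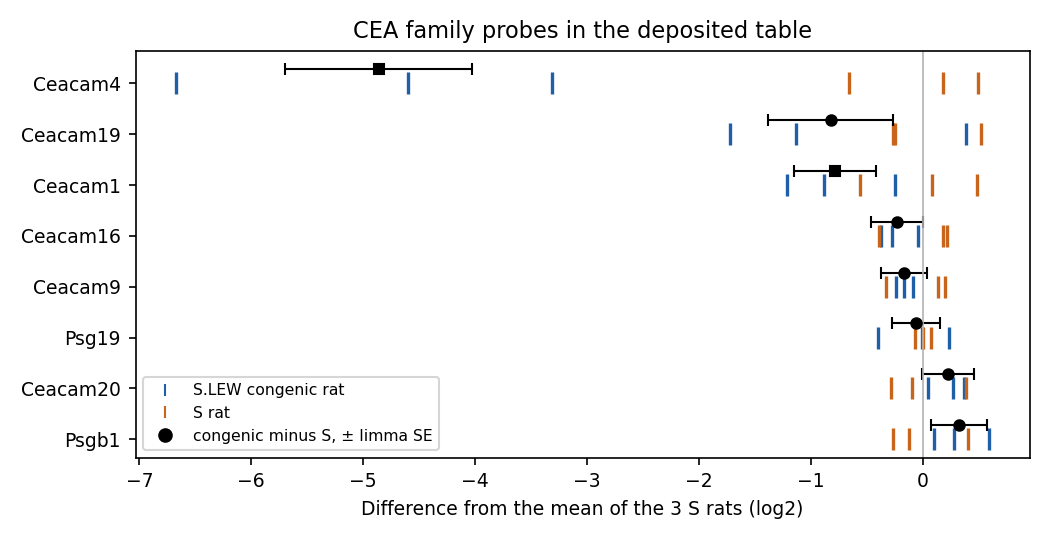
Each rat's log2 signal relative to the mean of the 3 S rats (ticks, blue for S.LEW congenic and orange for S) for the 8 CEA family probes in the deposited table, with the strain difference ± limma standard error above the ticks (squares for the members). Only for Ceacam4 are the blue ticks all to the left of the orange ones.

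Of the 10 genes nearest to Ceacam4 with a tested probe in the GRCr8 order, 5 on each side, limma called none lower. Over all genes tested, 2.62% were called lower and 3.79% higher. Tex101 on one side had a difference of -0.42 (standard error 0.34) and Dmrtc2 on the other one of -0.13 (standard error 0.23). Ethe1, a mitochondrial enzyme of sulfide breakdown, was called higher in the congenic strain, with a difference of 1.14 (standard error 0.29, adjusted p = 0.269 from limma). Arhgef1 had a difference of -0.97 (standard error 0.41), with S2 among the congenic rats. Of the 10 neighbours of Ceacam1, 0 were called in either direction. Bckdha, a subunit of the branched-chain keto acid dehydrogenase, had the largest of these differences, 0.56 (standard error 0.16). Its congenic rats were all above the S rats, an order found at 12.4% of all probes. Between the members, 14 tested genes had differences from -0.97 to 0.65 with a median of 0.10, and 0 were called. At the shares called over all genes, counts of 0 in groups this small say little.

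**Figure D4:**
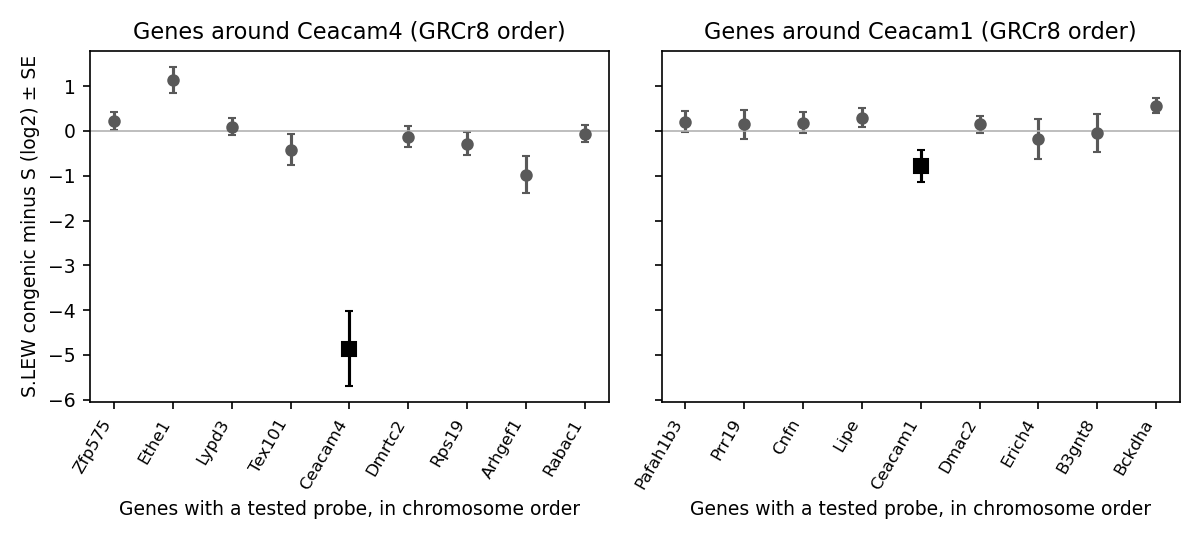
Difference between strains (S.LEW congenic minus S, log2, ± limma standard error) of Ceacam4 and Ceacam1 (squares) and of the 4 nearest genes with a tested probe on each side (circles), in chromosome order. Ceacam4 lies at -4.86 among neighbours between -0.97 and 1.14, and Ceacam1 at -0.79 among neighbours between -0.18 and 0.56.

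The probes whose pattern over the 6 arrays lay nearest to that of Ceacam4 were found by the mean absolute difference of the deviations from the 6-array mean, among 14642 named probes. They were Mybpc1 (0.79 on the log2 scale), Dusp2 (0.88), Myh1 (0.89), Adcy7 (0.998) and Slc15a1 (1.02), against a median of 2.45 over all of them. Mybpc1 and Myh1 encode sarcomere proteins of skeletal muscle, Dusp2 a phosphatase of MAP kinases in immune cells and Slc15a1 the intestinal peptide transporter. None of the 5 was well above background on any congenic array. Their congenic values are therefore not measured levels, and the sizes of their differences are uncertain. Mybpc1 had log2 signals of 8.23, 7.63 and 7.80 in S1, S2 and S3, whereas Dusp2 had 8.92, 4.94 and 7.90, with S2 well below S1 and S3. The nearest to Ceacam1 were Defb52 (0.09), Cdkn2a (0.12), Adgrg5 (0.13), Or2a51 (0.13) and Tmprss7 (0.13), against a median of 0.59. The likeness of patterns over 6 arrays is a description, and all of these genes share the same 6 RNA samples.

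Marker genes of the tissue also differed between the rats, and their part in the values of the members was not tested. In bulk colon RNA, fewer cells of a type and less RNA per cell cannot be told apart. For comparison with the counts below, 3.79% of all genes tested were called higher and 2.62% lower. The colon was recognisable in every sample, as all 15 tested markers of mature colonocytes, Cdx2, Vil1 and Epcam among them, were well above background on all 6 arrays. Their mean deviation from the 6-array level was 0.19 to 0.56 in the congenic rats and -0.53 to -0.12 in the S rats, opposite in direction to Ceacam4, with 3 of the 15 called higher (Car1, Vil1 and Slc26a3) and 1 called lower (Guca2b). Called higher were 1 without C1, 2 without C2 and 6 without C3, and called lower were 0 without S3 and 2 without C1 or C2. Aqp8, a water channel, had a difference of -0.998 with every congenic rat below every S rat. The mean of the 8 goblet cell markers overlapped between the strains, at -0.23 to 0.07 in the congenic rats and -0.26 to 0.67 in the S rats. Taken singly, Tff3, Fcgbp and Clca1 overlapped. Zg16, Agr2, Atoh1 and Spdef had every congenic rat above every S rat, an order found at 12.4% of all probes. Retnlb had the reverse order, found at 5.33%. Spdef was called higher and Retnlb lower, the latter well above background on 0 of 3 congenic arrays. The goblet markers called higher were 0 without S3, 2 without S1 or C1 and 3 without S2.

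Of 5 tested markers of skeletal muscle, 3 were lower in the congenic strain, as Ceacam4 was. The mean of the 5 was at -0.98 to -0.64 in the congenic rats and at 0.61 to 1.07 in the S rats. Myh1, Mybpc1 and Tnnt3 were called lower, against 2.62% of all genes, and the count stayed at 3 whichever rat was omitted. It was 2 with normexp background correction, and 1 of 3 tested with the filter for signal well above background on all 6 arrays. Ckm (0.15) and Acta1 (0.42) had differences above 0, with S1 and S3 below every congenic rat and S2 above. Without S2, 1 marker was called higher, and Myh4 was not among the tested genes. Myh1 and Mybpc1 were well above background on 3 of 3 S arrays and 0 of 3 congenic arrays. They passed the detection filter through the S arrays alone, and their congenic values are not measured levels.

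The mean of the lymphoid cell markers did not follow Ceacam4 in S2. For the 7 tested markers, of which 6 were called lower, it was -1.69 to -1.43 in the congenic rats. It was 3.19 in S1 and 2.96 in S3, but -1.44 in S2. Cd3g (9.23 in S2, at most 9.18 in the congenic rats) and Cd5 (5.72 against 5.48) still had S2 above every congenic rat. The count called lower was 0 without S3 or C3, 1 without S1 or C1, 2 without C2 and 7 without S2. Among all genes tested, 2.62% were called lower and 3.79% higher. The mean of the 9 granulocyte markers was at -0.70 to 0.02 in the congenic rats and at 0.40 in S1, -0.08 in S2 and 0.86 in S3. Of these, Fcnb and Prg2 were called lower, with counts of 0 without S1 or S3, 1 without C2 or C3 and 3 without S2, and S100a8, S100a9, Elane, Csf3r, Cxcr2, Camp and Mmp9 were not. Within the S strain both members had the order S1, S3 and S2 in common with the mean of the lymphoid markers. Ceacam4 in S2 remained above every congenic rat. The median intensity of the arrays before normalization had that order too, at 594 in S1, 445 in S3 and 219 in S2. Its part in the values was not tested. The 6 smooth muscle markers gave 0 calls, or 4 called higher without S2, and the 4 adipocyte markers gave 2 called higher (Adipoq and Cfd).

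**Figure D5:**
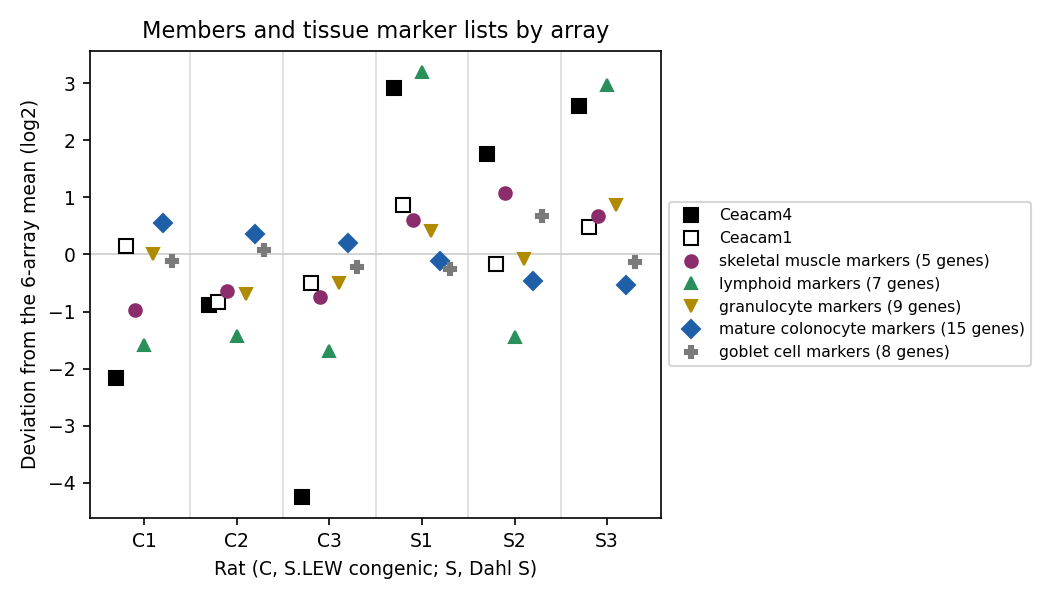
Deviation of each rat from the 6-array mean (log2) for Ceacam4 and Ceacam1 (squares) and for the mean of the markers of 5 cell types (colored symbols), with rats on the horizontal axis. Ceacam4 and the mean of the skeletal muscle markers are above 0 in all 3 S rats, and the mean of the lymphoid markers is at -1.44 in S2.

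Of 22 tested genes that act with CEACAM1, 0 were called higher and 0 lower by limma, against 3.79% and 2.62% of all genes. Their median difference was -0.18. The differences of 16 were below 0, and the mean deviation of the partners was -0.20 to -0.12 in the congenic rats and -0.01 to 0.29 in the S rats, without overlap. Ptpn6, which encodes the phosphatase SHP-1 that binds the tail of CEACAM1, had a difference of -2.32 (standard error 1.08), with congenic log2 signals of 9.66 to 10.13 and signals of 13.83, 9.55 and 13.32 in S1, S2 and S3. S2 was thus below the congenic rats, and without S2 the partners gave 4 called lower (Ptpn6, Syk, Grb2 and Tlr2) and 1 called higher (Flna). Havcr2, or TIM-3, a receptor of T cells that binds CEACAM1, had a difference of -0.76 (standard error 0.24) without overlap between the strains. It did not reach 2-fold, and its probe was well above background on 2 of 3 congenic arrays, not on C2. Grb2 (-0.89) also had every congenic rat below every S rat, and Ctnnb1, or beta-catenin, had the opposite order with 0.58 (standard error 0.21).

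Among 8 tested regulators of Ceacam1 transcription and splicing, 2 nuclear receptors were called higher in the congenic strain and 0 genes lower, against 3.79% and 2.62% of all genes. The study itself reported Ppara and the PPAR signaling pathway as higher in that strain. Because the list was chosen with earlier results of these data known, nothing follows from its counts. Pparg, a receptor of fatty acids and of insulin-sensitizing drugs, had log2 signals of 11.32, 11.18 and 11.30 in the congenic rats and 10.31, 9.55 and 9.06 in the S rats. The rats did not overlap, and the difference was 1.63 (standard error 0.33, adjusted p = 0.23 from limma). Ppara had a difference of 1.18 (standard error 0.30, adjusted p = 0.28 from limma), also without overlap, but without S3 only Pparg was called. Usf1 (-0.19) and Sp1 (-0.11), which bind the CEACAM1 promoter in human cells, and the splicing factors Hnrnpm (-0.20), Hnrnpl (-0.05) and Hnrnpa1 (-0.43) differed by less than 2-fold.

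Among 35 other tested adhesion molecules with immunoglobulin domains, the congenic strain had 2 genes called higher and 2 called lower, or 5.71% in each direction against 3.79% and 2.62% of all genes. Bcam, a laminin receptor, had a difference of 1.095 (standard error 0.32) and Nectin2, an epithelial junction protein, one of 1.03 (standard error 0.27). Icam1 and Madcam1, which hold leukocytes at vessel walls, had differences of -2.05 (standard error 0.69) and -2.99 (standard error 1.18). S2 was the lowest S rat for both of the latter, and without S2 the list gave 12 called higher and 7 lower. Called higher were 0 without S1 or S3, 1 without C2 and 4 without C3, and called lower were 0 without S3 or C1 and 1 without C3.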

How the data were processed

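Colon RNA of 3 S.LEW congenic and 3 S rats was labeled with Cy3 and hybridized to Agilent Rat 4x44K v3 arrays by the authors. The deposited scanner files hold background-subtracted spot intensity values from Feature Extraction 11.0.1.1, not normalized between arrays. The deposited log2 table holds 23997 probes, which the authors quantile-normalized in GeneSpring GX 12.1 and kept where detected in at least 3 of 6 samples. These log2 values were used here; their correlation with scanner values quantile-normalized here was at least 0.9999 on each array. The flag for signal well above background came from the scanner files, in which no spot was saturated and 73.8% to 87.6% of spots per array were well above background. The number of arrays limits the precision.

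Probes were named by matching unversioned accessions to RefSeq genes of GRCr8; probe coordinates are not given because the array was designed on rn4. Promoters come from RefSeq (GRCr8) and were aligned with Biopython 1.88. The strain contrast was fitted in limma 3.58.1 under R 4.3.3 (no covariates, Benjamini-Hochberg adjustment over all probes), after a test on simulated data in which 95.5% of 200 probes changed by 2 on the log2 scale were called, among 23997. The members, gene lists and the rule for named genes (family genes, nearest patterns, neighbours, lowest p per list) were chosen with earlier results of these data known; lists were counted on the brightest probe of each gene.

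Results of some genes in the lists and among the neighbours are not reported here. The study housed an S rat together with a congenic rat in each cage. The labels do not say whether rats with the same number were cage mates. Alternatives were scanner values (quantile, 75th percentile, normexp with offset 50, flagged spots kept), other filters, the methods' t-test, the replicate number or the scan time as a block, and each rat left out. Plots were drawn with matplotlib 3.10.9.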

Additional observations from a re-analysis of the deposited data

How the results depend on the processing

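The sign of the difference was negative for Ceacam4 and Ceacam1 under every alternative that gave a value. A filter for signal well above background on all 6 arrays removed both probes and gave none. The difference of Ceacam4 was -3.38 with normexp, which adds a constant to every signal. That of Ceacam1 was -0.25 with the scan as a block or within the first scan, which give the same contrast by design. With each rat left out, Ceacam4 ranged from -5.63 to -3.96 and Ceacam1 from -1.07 to -0.55. With the replicate block, the difference was -4.86 for Ceacam4 and -0.79 for Ceacam1, values that this block cannot change in a balanced layout. The deviations of same-numbered rats correlated at -0.02, -0.13 and -0.06.

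Of all probes, 776 were called higher and 562 lower. The counts higher were 359 with normexp and 515 with the methods' t-test. The counts lower were 342 with the filter on all 6 arrays, 227 with the scan as a block and 178 with the methods' t-test. With each rat left out they ranged from 477 to 2397 higher (without S3 and without S2) and from 192 to 1725 lower (without S3 and without S2). The cause was not tested. Among the counts for gene lists, 50 of 330 moved by over 1.5 times and 280 did not. Signal over background limits both members in the congenic rats.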
